A study of Mus musculus with 8 samples.

Results

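The control ventricles of a neonatal mouse knockout experiment were described on their own, as the baseline expression profile of the heart soon after birth. The 4 libraries labelled as wild type (CTL), out of 8 libraries in the series, were used, and the 4 NAE1CKO libraries entered no value or comparison. In the study, αMHCCre mice were crossed with mice carrying a floxed allele of Nae1, so that the gene is lost in cardiomyocytes of NAE1CKO animals, and CTL animals were their littermates on a C57BL/6J background. The Cre transgene is driven by the promoter of the cardiac α-myosin heavy chain gene. Which of the floxed and Cre alleles each CTL animal carried was not stated. The labels give ventricle as the tissue and postnatal day 1 as the age, while the scheme of the study names an earlier day, and the cell line and cell type tags read cardiomyocyte and neonatal. The libraries were made from polyadenylated RNA, and each is called here by its title. The first pair are WT-443-7 and WT-443-8, the second pair WT-453-3 and WT-453-5, and the labels do not say what the number in the titles stands for. Where 4 values are listed, they follow that order.

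The heart pumps with sarcomeres, in which myosin thick filaments pull on actin thin filaments when calcium released from the sarcoplasmic reticulum binds troponin. Around birth, the mouse ventricle replaces fetal isoforms of several sarcomere proteins by adult ones, and its cardiomyocytes turn from glucose and lactate towards fatty acids, burnt in mitochondria, as their main fuel. They also leave the cell cycle in the first days after birth. Bulk ventricle contains cardiomyocytes together with fibroblasts, endothelial cells, mural cells, macrophages and blood, and in such tissue fewer cells of a type cannot be told apart from less RNA per cell.

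The 4 CTL libraries held 15743144, 16179896, 18056322 and 13932821 counts assigned to genes. Of 40690 distinct genes in the table, 22085 had a count in at least 1 CTL library, and 12907 had at least 10 counts in each of the 4, called detected here, 12411 of them protein-coding. Abundance is given as share of all counts in a library, as CPM (counts divided by library totals that carry TMM factors, the trimmed mean of M values, and brought to one common total), and, wherever genes are compared with each other, as CPM per kilobase of the joined exons of the gene. Per kilobase, 10936 genes reached a mean of 1, 3633 reached 10, 303 reached 100, 32 reached 1000 and 6 reached 10000. WT-453-5 stood apart from the other libraries before any biological comparison. In it the noncoding gene Gm42418, which lies in ribosomal RNA sequence, took 12.8% of the counts against 4.02%, 4.62% and 4.30% in the others, and 209 genes held 50% of its counts against 334 to 373 genes. The values without this library are given beside the results that it moves.

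The most abundant products of the neonatal ventricle came from the mitochondrial genome and the sarcomere. The 10 genes with the highest mean share, which were Gm42418, Myh6, mt-Co1, mt-Cytb, mt-Nd1, Actc1, mt-Nd5, mt-Nd4, Tnnt2 and Atp2a2, took 19.2%, 19.5%, 19.8% and 26.8% of the counts. Without WT-453-5 the mean share of the leading 10 genes was 19.5%, and without Gm42418, the mitochondrially encoded and the hemoglobin genes it was 11.5% over all 4 libraries. Myh6, which encodes the α-myosin heavy chain, took 2.56 ± 0.319% of the counts (SD, n = 4 libraries), and cardiac α-actin Actc1 took 1.77 ± 0.191%. Tnnt2, cardiac troponin T, took 0.873 ± 0.0913%, and Atp2a2, the SERCA2 calcium pump, 0.795 ± 0.0676%. The next 10 genes by share were Myl2, the giant elastic protein titin Ttn, mt-Nd2, the ATP synthase subunits Atp5b and Atp5a1, Tpm1, the adenine nucleotide translocator Slc25a4, Myl3, Mybpc3 and Actn2.

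Per kilobase the order changed, and long transcripts such as Ttn dropped down the list. Actc1 was the most abundant nuclear messenger RNA, at 10992 ± 1427 CPM per kilobase (SD, n = 4). Myl2 and Myh6 followed at 3858 ± 364 and 3812 ± 491 CPM per kilobase and did not differ beyond their spread. Then came Tnnc1, cardiac troponin C, at 2476 ± 179, Myl3, the ventricular essential light chain, at 2375 ± 165, Slc25a4 at 2178 ± 134 and the fatty acid binding protein Fabp3 at 1709 ± 389.6 CPM per kilobase. Of the 50-base stretches of Fabp3, 29.2% occur in transcripts of other genes, so that its level is uncertain. Ttn stood at 64.8 ± 16.2 CPM per kilobase. The red muscle oxygen store myoglobin, Mb, reached 1451 ± 220.1 CPM per kilobase.

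**Figure D1:**
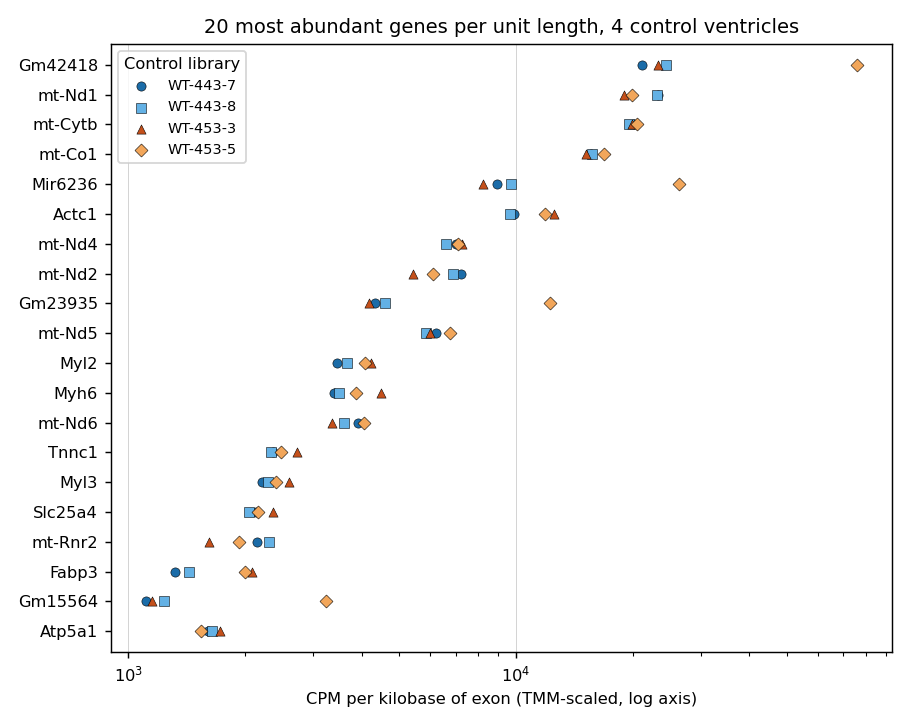
The 20 genes with the highest mean CPM per kilobase of exon, on a log axis, with 1 symbol for each of the 4 control libraries. Gm42418, Mir6236, Gm23935 and Gm15564 are higher in WT-453-5 than in the other libraries, while the values of mt-Cytb, at 20066 ± 367 CPM per kilobase, lie close together.

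Grouped by function, the sarcomere list (15 thick filament, 17 thin filament and 17 Z disc genes) took 11.0 ± 0.738% of the counts (SD, n = 4), and all 49 of its genes were detected. The 15 mitochondrially encoded genes, of which 9 were detected, took 10.2 ± 0.653%, and the 79 nuclear genes of the respiratory complexes 4.28 ± 0.306%. Calcium handling took 2.03 ± 0.127%, extracellular matrix 1.63 ± 0.0415%, energy buffering 1.34 ± 0.0692%, fatty acid oxidation 1.22 ± 0.0970%, enzymes of the tricarboxylic acid cycle 1.24 ± 0.0673% and glycolysis 0.852 ± 0.0444%. The last 3 of these lists hold 26, 20 and 20 genes, each of which was detected. The 86 cytosolic ribosomal protein genes took 0.653 ± 0.0471%, from a median of 10.1 CPM per kilobase. Of these genes, 32 had under 10 CPM, among them Rps6, with 43.8% of its 50-base stretches found in transcripts of other genes, and Rpl19, with 57.4%. Of the 32, 4 had under 10% of their stretches shared, 20 had 10 to 30% and 8 had 30% or more. The medians of all genes in these groups were 17.3, 7.22 and 11.0 CPM per kilobase, with no steady fall. Shared sequence leaves the counts of this family uncertain, and its part in their level was not tested. The shares of the mitochondrially encoded and glycolysis lists carry the same limit, since members such as mt-Co2, Gapdh and Pgk1 also share sequence with other genes.

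**Figure D2:**
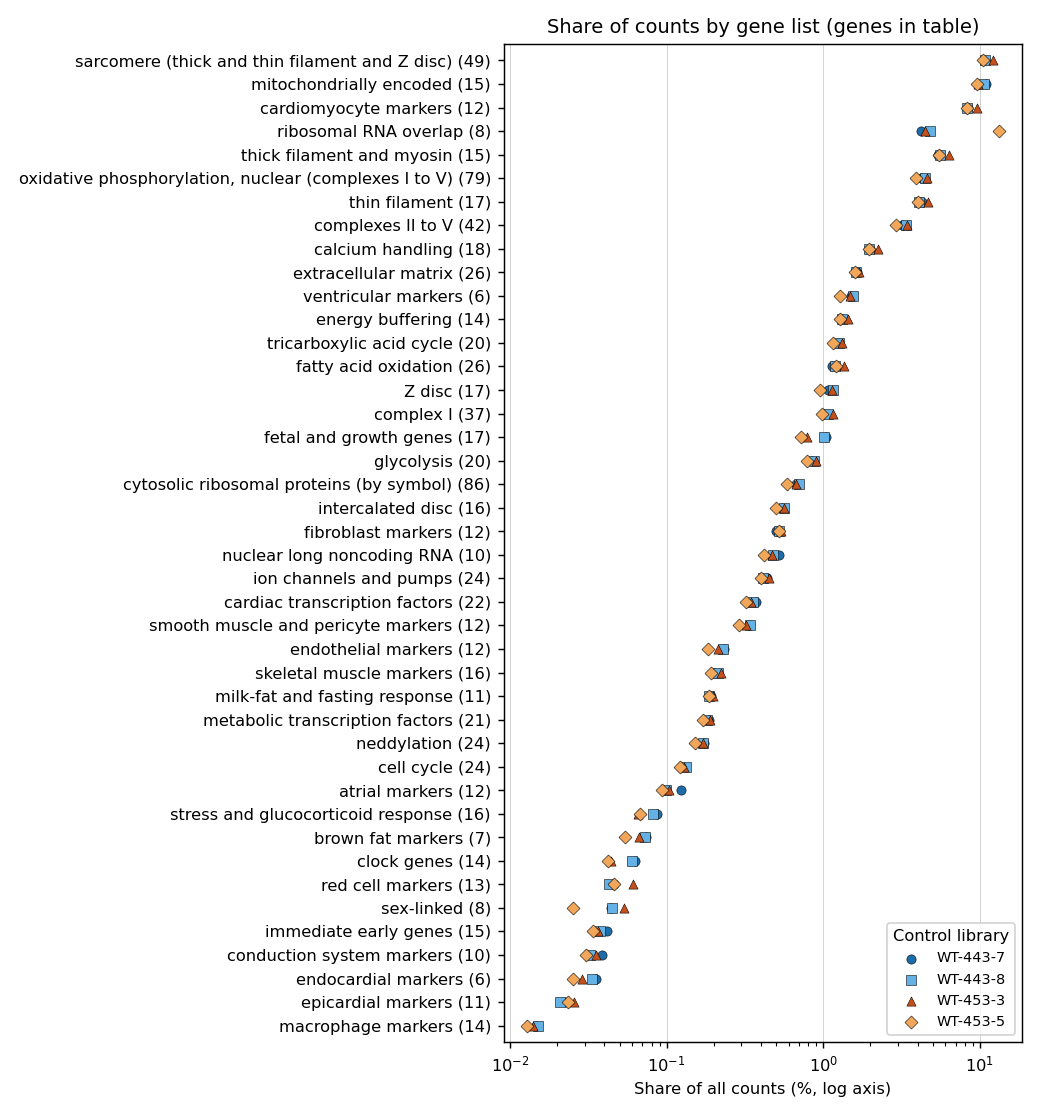
Share of all counts, in percent on a log axis, taken by each gene list in each of the 4 control libraries, with the number of genes of the list in the table in brackets. The ribosomal RNA overlap list, which holds Gm42418, lies at 13.2% in WT-453-5 and between 4.20% and 4.81% elsewhere, while the sarcomere list lies between 10.4% and 12.1%.

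Within the thin filament, the cardiac or ventricular isoform led each troponin and tropomyosin family by a wide margin, with the exception of troponin I. Actc1 reached 16042, 15618, 20296 and 19184 CPM in the 4 libraries, and the skeletal α-actin gene Acta1 65.7, 88.6, 65.4 and 58.6 CPM. Both WT-453 libraries were above both WT-443 libraries for Actc1, a split without overlap that, in either direction, 54.4% of all genes tested showed, and WT-443-8 was highest for Acta1. That share applies to every such split of a gene named below. Per kilobase the ratio of Actc1 to Acta1 was 232, 167, 294 and 311. Smooth muscle actin Acta2, which fetal cardiomyocytes and mural cells both express, was the second actin, at 762 ± 39.8 CPM per kilobase. Tnnt2 exceeded Tnnt1, the slow skeletal form, by 73.8, 65.2, 60.3 and 62.9-fold per kilobase. The fast skeletal troponin C gene Tnnc2 had 0 counts in all 4 libraries, so that Tnnc1 was at least 42473-fold higher per kilobase, taking a floor of 3 counts over the 4 libraries. Tpm1, the main striated muscle tropomyosin, exceeded Tpm2 by 24.1, 24.7, 26.2 and 27-fold, a ratio that varied little (log2 SD 0.07).

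Troponin I was the family in which the fetal and the adult isoform stood closest. Tnni1, the slow skeletal form that the fetal heart uses, had 2806, 2834, 2997 and 2793 CPM, and Tnni3, the adult cardiac form, 1953, 1853, 2089 and 2120.2 CPM. By CPM Tnni1 was therefore the higher in each library. Tnni1 has 3600 bases of joined exons and Tnni3 2063, and per kilobase the ratio of Tnni3 to Tnni1 was 1.21, 1.14, 1.22 and 1.32. The adult form was thus the higher per kilobase in 4 of 4 libraries, which cannot reach significance in a sign-flip test of 4 libraries (smallest two-sided exact p = 0.125). The direction turned when length was left out (log2 ratio −0.51), and Tnni3 also overlaps exons of Dnaaf3. Fast skeletal Tnni2 was 341, 327, 349 and 394-fold below Tnni3 per kilobase.

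The thick filament was dominated by Myh6, and its ratio to the fetal β-myosin heavy chain gene Myh7 had the largest SD of all 62 gene pairs measured. Myh6 (chromosome 14 from 54941921 to 54966927, minus strand) and Myh7 (chromosome 14 from 54970684 to 54994626, minus strand, both GRCm38 in GENCODE M21) lie next to each other. Myh6 had 22809, 23576, 30146 and 26029 CPM and Myh7 2992, 2865, 950.2 and 858 CPM. Myh7 was higher in both WT-443 libraries than in both WT-453 libraries, with no overlap, while Myh6 was lower in the WT-443 libraries. Of all genes tested, 54.4% showed a split without overlap in either direction. The ratio of Myh6 to Myh7 per kilobase was accordingly 9.77, 10.5, 40.6 and 38.9 (log2 mean 4.33 ± 1.14, SD, n = 4). Myh7 overlaps the noncoding gene Mhrt, which had 5.56, 4.89, 11.6 and 10.5 CPM and was the higher in the WT-453 libraries. Since the strand setting of the counting is not given in the sources used here, reads of Myh7 and Mhrt cannot be told apart. The 2 heavy chain genes also resemble each other, and 20.2% of the 50-base stretches of Myh6 and 15.6% of those of Myh7 occur in a transcript of another gene. None of the stretches of Myl2, Myl3 and Myl7 was shared. Ventricular Myl2 exceeded atrial Myl7 by 9.66, 15.5, 11.0 and 10.1-fold, with WT-443-8 highest and its Myl7 the lowest (211, 139, 227 and 238 CPM), and ventricular Myl3 exceeded the fetal and atrial Myl4 by 36.7, 45.5, 47.8 and 47.5-fold. Cardiac myosin binding protein C, Mybpc3, reached 1084 ± 68.3 CPM per kilobase and its fast skeletal relative Mybpc2 1.63 ± 0.150.

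At the Z disc and M band, Actn2, the sarcomeric α-actinin, led with 923 ± 82.3 CPM per kilobase, followed by the small heat shock protein Cryab at 429 ± 44.5, desmin Des at 362 ± 16.3 and telethonin Tcap at 255 ± 27.3. Of the M-band proteins, Myom1 and Myom2 were the balanced pair. The ratio of Myom2, which belongs to the mature heart, to Myom1 was 0.897, 0.833, 0.974 and 1.19 per kilobase, so that Myom2 was the higher in WT-453-5 alone. Myom3 lay 387, 181, 402 and 366-fold below Myom1.

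The region before the start site of these genes is shown because some of the most abundant transcripts of the ventricle share a short motif there. RefSeq promoter windows (GRCm38.p6, 250 bases before the annotated start, the first listed start of each gene) were searched for the CArG box, the binding motif of serum response factor, which reads the same way on both strands. It was found in 6 of 41 sarcomere genes with a window (14.6%), in 5 of 80 among the 100 nuclear protein-coding genes with the most CPM per kilobase (6.25%) and in 1.4% of all 27025 genes with a window. The 6 sarcomere promoters that hold it are printed with 25 bases on each side, from the 5′ end on the strand of the gene, and the capitals mark the box.
Actc1, chr2:114052888-114052947, minus strand: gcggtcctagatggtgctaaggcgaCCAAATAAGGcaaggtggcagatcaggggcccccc
Acta1, chr8:123894814-123894873, minus strand: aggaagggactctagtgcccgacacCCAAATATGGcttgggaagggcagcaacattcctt
Myl3, chr9:110763568-110763627, plus strand: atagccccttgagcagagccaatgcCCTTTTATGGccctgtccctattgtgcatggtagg
Myl7, chr11:5898809-5898868, minus strand: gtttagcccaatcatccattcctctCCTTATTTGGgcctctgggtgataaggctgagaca
Ldb3, chr14:34588682-34588741, minus strand: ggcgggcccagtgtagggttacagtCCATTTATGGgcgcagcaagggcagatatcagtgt
Myom1, chr17:71019433-71019492, plus strand: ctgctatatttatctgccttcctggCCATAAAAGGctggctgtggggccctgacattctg
The box ended 37 bases before the start of Actc1, 63 bases before that of Acta1, 25 before Ldb3, 75 before Myl3, 51 before Myl7 and 89 before Myom1. These genes cover a wide range of levels, from Actc1 at 10992 CPM per kilobase to Acta1 at 45.3. CATTCC, the core of the motif of TEAD factors, was found on either strand in 12 of 41 sarcomere genes (29.3%) against 12.6% of all windows, among them those of Myh6, Myh7, Myl3, Tnnc1, Tnnt2 and Tpm1. TATAAA, searched on both strands, was found in 3 sarcomere windows (7.32%), against 13.0% of all windows and 6.16% of those of genes with a mean of at least 1 CPM. A match is a run of letters and does not show binding.

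Cardiac isoforms led the genes of excitation and calcium release. Atp2a2 reached 7540.5, 7272, 8862 and 8129.9 CPM and its inhibitor phospholamban, Pln, 3173, 3457, 3421 and 3555 CPM. Atp2a2 was higher in both WT-453 libraries, and the biological CV (the coefficient of variation between libraries after the counting error is taken off) was 8.86% for Atp2a2 and 4.76% for Pln. Per kilobase, Pln exceeded sarcolipin Sln, the atrial inhibitor, by 82.7, 231, 112 and 129-fold, with Sln the lowest in WT-443-8. Skeletal SERCA1, Atp2a1, had 48 counts over the 4 libraries, and the skeletal ryanodine receptor Ryr1 had 9, against 143601 for the cardiac Ryr2. The third ryanodine receptor, Ryr3, was 334, 651, 329 and 634-fold below Ryr2 per kilobase. Casq2, the cardiac calsequestrin, stood at 423 ± 22.8 CPM per kilobase, and junctophilin 2, Jph2, which ties the T tubule to the sarcoplasmic reticulum, at 128 ± 19.7.

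Among membrane proteins, Fxyd1, a regulator of the sodium pump, stood at 130.4 ± 7.78 CPM per kilobase. The potassium channel Kcnh2 stood at 54.9 ± 2.93 and the L-type calcium channel Cacna1c at 28.2 ± 2.54 CPM per kilobase. Of the inward rectifiers, Kcnj12 was the higher per kilobase in each library, with a ratio of Kcnj2 to Kcnj12 of 0.544, 0.601, 0.822 and 0.904, but by counts alone Kcnj2 was the higher. The pacemaker channels were low and their order was mixed, the ratio of Hcn2 to Hcn4 being 0.744, 1.30, 1.12 and 1.66. The ventricular gap junction gene Gja1 exceeded Gja5, the connexin of atria and conduction system, by 4.49, 7.14, 7.28 and 7.52-fold, with WT-443-7 the lowest. Desmoplakin Dsp led the intercalated disc list at 131 ± 8.43 CPM per kilobase.

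The mitochondrially encoded genes comprised 9 detected genes and 6 that were listed at or near 0. The 3 leading genes were mt-Nd1 at 21339 ± 2170.0, mt-Cytb at 20066 ± 367 and mt-Co1 at 15847 ± 701 CPM per kilobase. By contrast mt-Co2, mt-Atp6, mt-Atp8 and mt-Nd4l had 0 counts in every library, although their products belong to the same complexes and come from the same precursor transcripts, and mt-Co3 and mt-Nd3 had 5 or fewer counts in any library. To see how unique these genes are, each was broken into stretches of 50 bases, and the share of the stretches that also occur in a GENCODE M21 transcript of another gene, such as a nuclear copy of mitochondrial DNA, was counted. This share was 100% for mt-Co2, 99.9% for mt-Co3, 99.5% for mt-Atp6, 98.8% for mt-Nd4l and 98.0% for mt-Nd3. It was 0% for mt-Nd1 and 0% for mt-Cytb. Between these extremes lay mt-Co1 at 51.1% and mt-Nd4 at 62.2%, both with high counts, while mt-Atp8 had 0% shared and 0 counts. Genes with overlapping exons and sequence outside annotated transcripts were not searched, so that 0% does not show a gene to be unique. How reads that fit several places were counted is not given in the sources used here, and the part of shared sequence in these zeros was not tested.

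**Figure D3:**
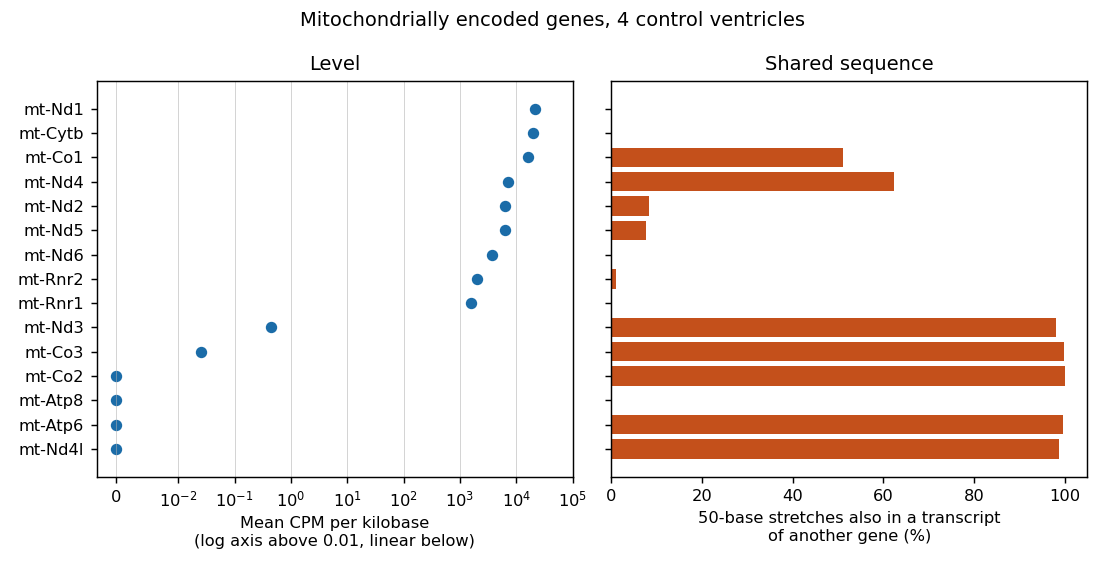
The 15 mitochondrially encoded genes, with the mean CPM per kilobase over the 4 control libraries on the left and, on the right, the percentage of the 50-base stretches of each gene that also occur in a transcript of another gene. The 6 genes listed at or near 0 comprise 5 with at least 98.0% of their stretches shared, and mt-Atp8 with 0%.

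Nuclear genes of the respiratory chain were abundant. All 37 genes of complex I in the table and all 42 of complexes II to V were detected, with medians of 177 and 342 CPM per kilobase. The ATP synthase subunits Atp5a1 and Atp5b reached 1627 ± 78.8 and 1292 ± 46.5, and Cox6a2, the heart and muscle form of a cytochrome oxidase subunit, reached 1541 ± 43.1 CPM per kilobase. Muscle and liver forms of cytochrome oxidase subunits were in different balance. Cox6a2 exceeded the ubiquitous Cox6a1 by 1.78, 1.77, 1.99 and 1.84-fold, whereas the muscle form was the lower for subunit 7a (Cox7a1 to Cox7a2, 0.771, 0.801, 0.784 and 0.903) and for subunit 8 (Cox8b to Cox8a, 0.531, 0.638, 0.698 and 0.776). Each of these orders held in 4 of 4 libraries. The translocator Slc25a4, the heart and muscle form, exceeded Slc25a5 by 12, 11.6, 13.3 and 11.9-fold, but 33.8% of the 50-base stretches of Slc25a5 occur in transcripts of other genes, which leaves this ratio uncertain.

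Both fuel pathways were expressed, and the order of paired isoenzymes differed from step to step. Fabp3, with 29.2% of its 50-base stretches shared with other genes, had 1087, 1177, 1719 and 1644 CPM, with both WT-453 libraries above both WT-443 libraries. The β-oxidation enzymes Acaa2 and Acadl reached 599 ± 88.0 and 554 ± 40.7 CPM per kilobase. Carnitine palmitoyltransferase, the gate of fatty acid entry into mitochondria, was mostly the liver form. Cpt1a had 291, 284, 263 and 273 CPM and the muscle form Cpt1b 23.6, 28, 31.0 and 31.1 CPM, a ratio of Cpt1b to Cpt1a of 0.184, 0.224, 0.267 and 0.259 per kilobase that stayed under 1 in each library. Likewise Hk1, the hexokinase of the fetal heart, exceeded the insulin-responsive Hk2, with a ratio of Hk2 to Hk1 of 0.280, 0.335, 0.408 and 0.408. The glucose transporters had the opposite order, and Slc2a4 (GLUT4) exceeded the fetal Slc2a1 (GLUT1) by 3.38, 3.33, 3.93 and 3.40-fold. Muscle enzymes led the rest of glycolysis, among them Aldoa at 644 ± 16.7, Pgam2 at 638 ± 61.9 and Eno3 at 517 ± 79.7 CPM per kilobase. The ratio of Ldhb, the heart form of lactate dehydrogenase, to Ldha was 3.30, 3.07, 3.01 and 2.95. Gapdh, usually among the most abundant glycolytic transcripts, had 80.6, 99.5, 75.4 and 76.3 CPM, and Pgk1 21.3, 23.1, 19.6 and 17.2 CPM. These genes have many near-identical copies, and 24.7% of the 50-base stretches of Gapdh and 53.9% of those of Pgk1 occur in transcripts of other genes, so that their counts are uncertain. The same holds for the ratio of Pgam2 to Pgam1 (36.2% shared) and of Eef1a2 to Eef1a1 (38.6% shared).

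Pdk4, which responds to fasting and shuts pyruvate out of oxidation, had 389, 360.5, 343 and 310.2 CPM. Among metabolic transcription regulators, the thyroid hormone receptor Thra led with 61.3 ± 1.57 CPM per kilobase, 162, 155, 178 and 139-fold above Thrb. Esrra stood at 32.9 ± 3.64, the coactivator Ppargc1a at 25.9 ± 2.04 and Ppara at 8.5 ± 2.05 CPM per kilobase. The ratio of Ppara to Pparg was 2.51, 3.74, 5.87 and 5.71, and of Epas1 to Hif1a 2.23, 2.01, 2.0 and 1.77.

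**Figure D4:**
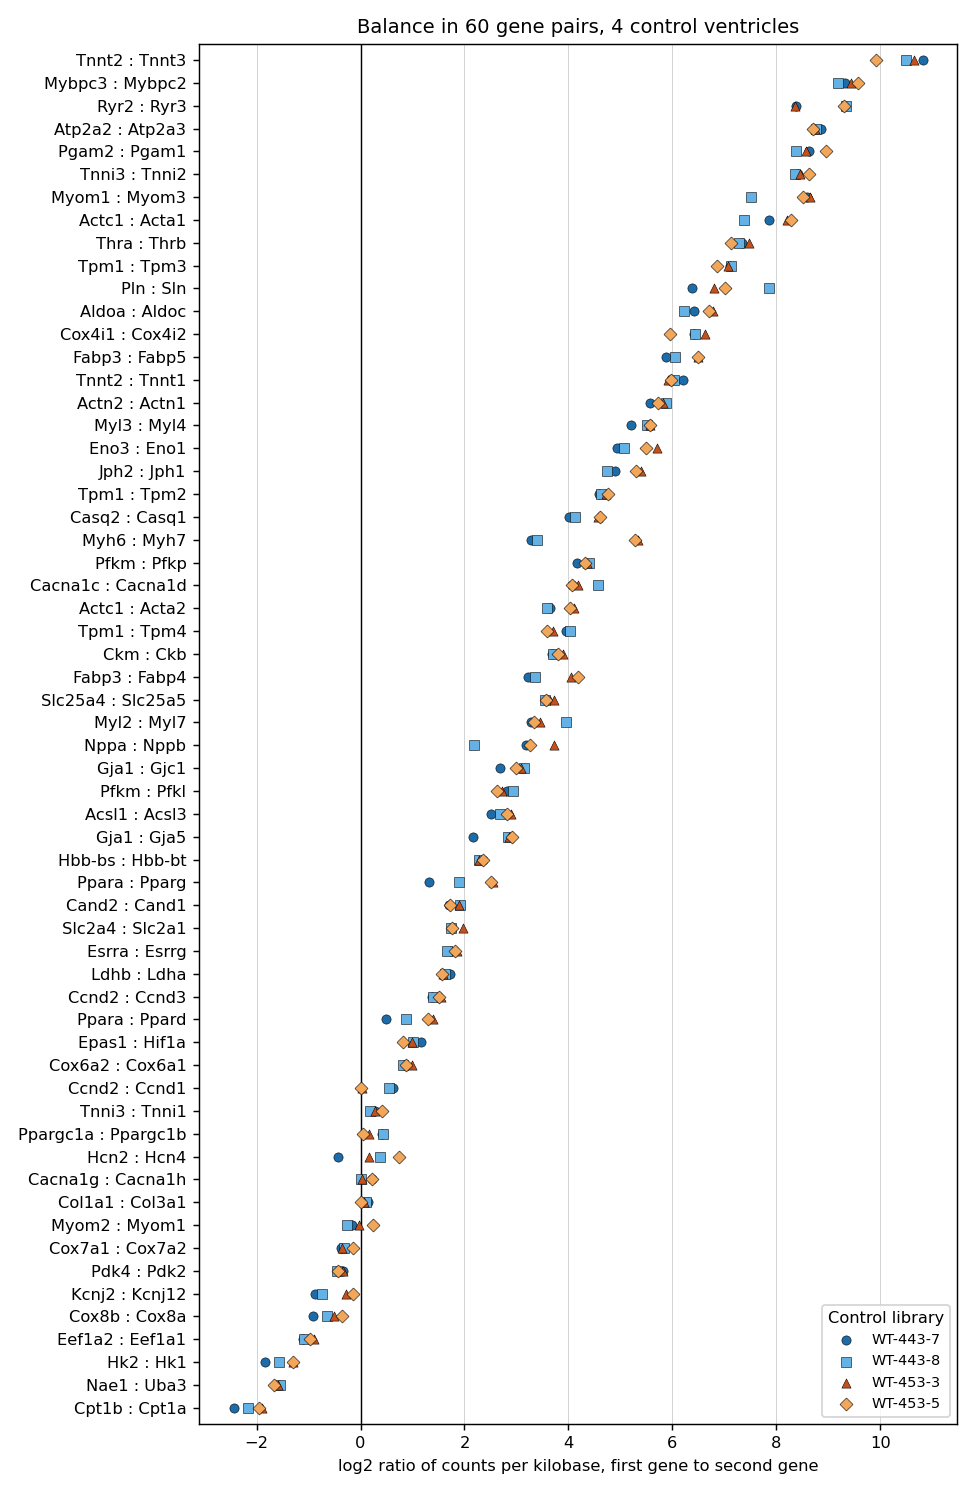
The log2 ratio of counts per kilobase of the first to the second gene in 60 pairs in which both genes had at least 10 counts in each library, with 1 symbol for each of the 4 control libraries and a line at equal levels. The first gene lies higher in all 4 libraries in 50 pairs and the second in 8, Myom2 to Myom1 and Hcn2 to Hcn4 are mixed, and Myh6 to Myh7 splits by title number.

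Of 72 pairs, 62 had at least 10 counts of both genes in each library. Of these, 40 differed by at least 4-fold in the geometric mean of the 4 libraries, and the median SD of the log2 ratio was 0.20. In 6 pairs this SD was over 0.5, and these included Myh6 to Myh7 (1.14), Nppa to Nppb (0.65), Pln to Sln (0.62) and Ppara to Pparg (0.58). The pairs were picked for known isoform switches, so their shares describe the pairs and not gene families in general.

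Cardiac transcription factors were led by Hopx at 136 ± 5.52, Nkx2-5 at 109 ± 12.2 and Srf at 80.9 ± 5.54 CPM per kilobase. Tbx20 varied little, with 501, 485, 485 and 489.8 CPM and a biological CV of 1.05%, and Gata4 had 247, 263, 253 and 256 CPM. Of the ventricular identity genes, Irx4 had 136, 133, 117 and 119 CPM and Hey2 96.3, 99.1, 92.9 and 93.3 CPM. The chamber of origin was checked with the atrial list, and its summed share was 0.123, 0.0991, 0.103 and 0.0933%, highest in WT-443-7, against 1.51, 1.55, 1.49 and 1.28% for the ventricular list. All 12 atrial markers were detected, the defining Sln at 18.3, 7.16, 14.6 and 13.2 CPM. WT-443-7 was the highest and WT-443-8 the lowest library for Sln, and the part of atrial tissue in this was not tested.

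Of 17 fetal and growth genes 14 were detected, with a median of 26.6 CPM per kilobase, and H19 and Igf2 were abundant. The growth factor Igf2 had 3476, 3243, 2632 and 2753 CPM and the imprinted noncoding RNA H19 3697, 3375, 2747 and 2621 CPM, and for both the WT-443 libraries were above the WT-453 libraries. Natriuretic peptide A, Nppa, which the ventricle loses after birth, had 428, 379, 327 and 309 CPM, and Nppb 42.6, 75.4, 22.2 and 28.9 CPM. Nppb varied more than Nppa, with WT-443-8 the highest. Ankrd1, a stretch-responsive nuclear protein, was likewise highest in WT-443-8, at 252, 514, 206 and 242 CPM. Dlk1 had 0 counts in all 4 libraries.

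The cell cycle list took 0.127 ± 0.00466% of the counts, and all 24 genes were detected. Ccnd2 led at 34.7 ± 0.629 CPM per kilobase, and Ccnd1 at 28.8 ± 6.76 was level with the kinase Cdk4, at a mean of 28.8. The ratio of Ccnd2 to Ccnd1 was 1.54, 1.46, 1.02 and 1.0. Ccnd1 had 107, 109, 163 and 163 CPM, with both WT-453 libraries above both WT-443 libraries. The mitotic cyclin Ccnb2 had 24.5, 30.9, 12.6 and 15.7 CPM and was the higher in the WT-443 libraries, whereas the replication clamp Pcna had 29, 29.6, 38.0 and 35.8 CPM and was the higher in the WT-453 libraries.

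The neddylation pathway, the target of the knockout, attaches the ubiquitin-like protein NEDD8 to cullins, the scaffolds of ubiquitin ligases. All 24 genes of the list were detected, and it took 0.166 ± 0.0103% of the counts. It had the lowest median biological CV of all lists, 3.79% against 5.57% over all 8766 genes of at least 10 CPM. Nedd8 itself stood at 81.5 ± 2.79 and its conjugating enzyme Ube2m at 77.9 ± 3.81 CPM per kilobase. Nae1, the regulatory subunit of the activating enzyme, had 22.6, 21.6, 23.4 and 23.0 CPM, and its catalytic partner Uba3 52.0, 49.1, 54.8 and 56.5 CPM. Per kilobase the ratio of Nae1 to Uba3 was 0.338, 0.342, 0.332 and 0.316, with Nae1 the lower in each library. Of the cullins, Cul3 reached 23.8 ± 0.626, Cul4a 21.7 ± 0.899, Cul7 21.6 ± 1.39 and Cul1 19.7 ± 0.267 CPM per kilobase. The muscle form of the cullin exchange factor, Cand2, exceeded Cand1 by 3.27, 3.75, 3.74 and 3.31-fold, but its exons overlap the ribosomal protein gene Rpl32.

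Markers of the other cells of the heart were detected. The fibroblast list took 0.519 ± 0.0163% of the counts, led by collagens Col1a1 at 163 ± 9.60 and Col3a1 at 154 ± 14.8 CPM per kilobase. Basement membrane collagen Col4a1 was higher still, at 221 ± 4.09, as was the matrix glycoprotein Sparc, at 314 ± 9.28. Endothelial markers took 0.214 ± 0.0220%, with VE-cadherin Cdh5 at 380.0, 399, 388 and 359 CPM and Pecam1 at 215, 213, 210.3 and 206 CPM. Mural cell markers took 0.321 ± 0.0231% and macrophage markers 0.0141 ± 9.45e-04%, with the complement gene C1qb at 14.6, 15.8, 15.2 and 17.4 CPM. The macrophage marker Lyve1, which lymphatic endothelium shares, had 23.3, 18, 8.73 and 9.59 CPM and was the higher in both WT-443 libraries.

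Most defining markers of neighbouring tissues were at or near 0, with exceptions in the brown fat and skeletal muscle lists. Skeletal muscle regulators Myod1 and Myf6 and the fast myosin Myh4 had 0 counts, as had Ucp1 and Elovl3 of brown fat, the lung epithelial genes Sftpc, Sftpd, Epcam and Nkx2-1, and the thymocyte genes Rag2, Ptcra, Cd3e, Cd8b1 and Themis. Of 16 skeletal muscle markers 5 were detected, among them Acta1 and Ckm, which the heart expresses as well. With 0 counts in a library, a level of up to 3 counts of its total is allowed. Of 7 brown fat markers, Fabp4, Cidea and Prdm16 were detected, and capillary endothelium expresses Fabp4 as well. Cidea had a mean of 39.7 CPM (35.6 CPM per kilobase), and the part of brown fat in this level was not tested. The red cell list took 0.0463, 0.0426, 0.0610 and 0.0462% and was highest in WT-453-3. Its adult globin Hbb-bs had 206, 193, 287 and 245 CPM, whereas embryonic Hbb-y had 19 counts over the 4 libraries. The adult globin genes share 53.2% to 89.3% of their 50-base stretches with another gene, so that the split between Hba-a1 and Hba-a2 is uncertain.

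The 4 control ventricles were close to each other for most genes. Over 8766 genes of at least 10 CPM, the median biological CV was 5.57%, with quartiles of 2.40% and 9.38%. The highest and lowest library differed by less than 1.5-fold for 95.2% of these genes and by more than 2-fold for 65 genes (0.742%). Genes of at least 100 CPM whose spread did not exceed counting error included integrin β1, Itgb1 (619, 617, 611 and 623 CPM), moesin Msn (331, 326, 322 and 323 CPM) and Slc25a5 (294, 289.9, 294 and 299 CPM). Median spread differed between lists. The clock list had a median biological CV of 25.8% and 7 of its genes over 20%, the cell cycle list 17.7% and the nuclear long noncoding RNA list 35.8%, among them Malat1 with 973, 934, 1494 and 1790.4 CPM. Complexes II to V stood at 5.89% and endothelial markers at 3.92%.

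The genes with the largest spread were of 3 kinds. The first were sex-linked. Xist, expressed from the inactive X chromosome, had 209, 225, 308 and 3.12 CPM, and the Y-linked Eif2s3y had 0.183, 0.417, 0.165 and 55.0 CPM and Ddx3y 0.0611, 0.596, 0.385 and 36.8 CPM. WT-453-5 was thus low for Xist and high for the Y-linked genes, and the other 3 libraries the reverse. The X-linked Kdm6a, which escapes inactivation, was also lower in WT-453-5, at 54.8, 56.2, 52.3 and 28.1 CPM. The second kind were genes in or near ribosomal RNA sequence, namely Gm42418, Mir6236, Gm23935, Gm15564 and Lars2. Lars2, a mitochondrial leucyl tRNA synthetase, had 1489, 1701, 1551 and 4399.8 CPM, and each of these 5 genes was highest in WT-453-5. WT-453-5 alone holds both the sex-linked and the ribosomal RNA pattern, so that they cannot be told apart in its other differences. Both WT-443 libraries have the Xist-high pattern, while the WT-453 libraries are mixed. The others were Myh7, Nppb, Hif3a, a negative regulator of the hypoxia response, with 96.5, 93.9, 30.2 and 38.3 CPM, the NAD precursor kinase Nmrk2 with 11.3, 6.74, 26.3 and 18.7 CPM, and the kinase gene Mylk4 with 10.4, 23.8, 8.35 and 10.2 CPM.

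**Figure D5:**
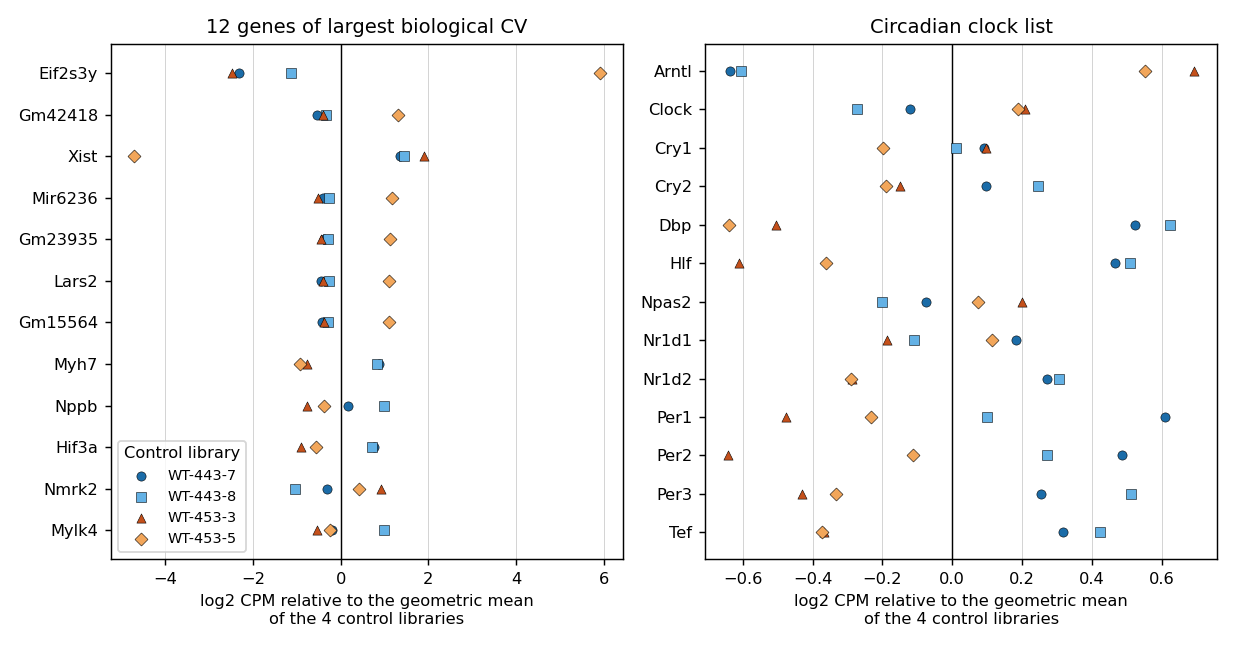
The CPM of each of the 4 control libraries relative to their geometric mean, on a log2 scale, for the 12 genes with the largest biological CV (left) and the clock genes of at least 1 CPM (right). Xist and Eif2s3y set WT-453-5 apart, and Arntl and Clock lie on the other side of the line from Dbp, Hlf, Nr1d2, Per3 and Tef in both pairs of libraries.

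Part of the spread followed the number in the titles. The first principal component of the 500 most variable genes held 56.2% of the variance, with scores of −9.39 and −11.1 in the WT-443 libraries and 7.70 and 12.8 in the WT-453 libraries. The common biological coefficient of variation in edgeR was 0.0947 over the 4 libraries and 0.0582 within title numbers. Of 13545 genes tested with edgeR's quasi-likelihood test (2 libraries against 2), 1553 (11.5%) had an adjusted p under 0.05, 804 higher (5.94%) and 749 lower (5.53%) in WT-453. The split was 255 higher and 1164 lower when libraries were scaled by their size alone. Leaving out WT-453-5 left 736 called genes, and leaving out 1 of the other libraries 511 to 835. P-values measure only the spread between these samples, and the sex-linked and ribosomal RNA differences fall within WT-453.

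Myh7 had the smallest adjusted p of all genes that were lower in WT-453, with a log2 difference of −1.70 (standard error 0.0651, adjusted p = 1.08e-16, edgeR). The other genes with the smallest adjusted p that were lower in WT-453 included the glucocorticoid target Fkbp5 (−1.04), Hif3a (−1.49), the thioredoxin-binding family member Arrdc4 (−1.14) and the cell cycle inhibitor Cdkn1c (−0.68). Those that were higher included nestin Nes (0.70), uridine phosphorylase Upp1 (0.91), collagen Col15a1 (0.64), the metalloprotease Adam19 (0.62), integrin Itga9 (0.61) and Ccnd1 (0.59).

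Clock genes differed between the title numbers in 9 of 14 cases, 7 lower and 2 higher in WT-453, against 5.53% and 5.94% of all genes. Dbp, an output gene of the clock, had 22.5, 24.1, 11.0 and 10.1 CPM, and its relatives Hlf 62.5, 64.3, 29.6 and 35.2 CPM and Tef 89.7, 96.7, 55.9 and 55.7 CPM. Each was higher in both WT-443 libraries without overlap, a split that 54.4% of all genes tested showed in either direction. Arntl (BMAL1), the core activator, had the opposite order, at 5.13, 5.25, 12.9 and 11.7 CPM. Per3, Per2, Cry2 and Nr1d2 were also lower in WT-453 and Clock was higher. The counts for the clock list without WT-453-5 were 6 lower and 2 higher.

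All calls in the fatty acid oxidation, calcium handling and complex I lists were higher in WT-453. Of 26 fatty acid oxidation genes, 12 were higher in WT-453, against 5.94% of all genes, with Fabp3 (log2 difference 0.57) among them. Of 18 calcium handling genes 7 were higher, and of 37 genes of complex I 8 were higher. Such counts were not particular to these lists. In the extracellular matrix list 7 of 26 genes were higher and 1 was lower. Among metabolic transcription regulators 6 of 21 were higher and 1 lower, in the thin filament 5 of 17 and 1, and in the cell cycle list 6 of 24 and 4. In the tricarboxylic acid cycle list 2 of 20 were higher and 3 lower, and in glycolysis 4 of 20 were higher and 2 lower. Marker lists also differed, with 4 of 12 cardiomyocyte markers higher and 2 lower, 4 of 12 fibroblast and 4 of 9 red cell markers higher, and 2 of 12 endothelial markers lower. These counts depended on the scaling too. With library size alone, 1 cardiomyocyte marker was higher and 2 were lower, 1 fibroblast and 2 red cell markers were higher, and 2 endothelial markers were lower. Of all 13545 genes, 255 were higher and 1164 lower in that setting. After TMM scaling, cardiomyocyte markers summed to 80250.1, 80191, 95193 and 90204 CPM and fibroblast markers to 4779.7, 5038, 5318 and 5677 CPM. Both were higher in WT-453 without overlap, a split that 54.4% of single genes tested showed in either direction. Red cell markers summed to 445, 411, 605 and 502 CPM and endothelial markers to 2219, 2209.9, 2113 and 1993 CPM, the former higher and the latter lower in WT-453. As shares of all counts, Gm42418 included, cardiomyocyte markers took 8.35, 8.31, 9.60 and 8.30%, with WT-453-5 lowest. Fibroblast markers took 0.497, 0.522, 0.536 and 0.522%, and red cell markers 0.0463% in WT-443-7 and 0.0462% in WT-453-5. The part of these markers in the metabolic counts was not tested. The counts for fatty acid oxidation, calcium handling and complex I depended on the scaling, and some on the test. With libraries scaled by their size alone, which shifts the median log2 difference of all genes by −0.10, they were 3, 1 and 1. In that setting 255 of all 13545 genes were higher. With DESeq2 they were 11, 7 and 3, against 299 of all 13545 genes. Without robust estimation they were 11, 4 and 3, against 668 of all genes. Each count was smaller when a library was left out, as was the count over all genes. Of 15 fetal and growth genes tested, 5 were lower in WT-453, against 5.53% of all genes, and these were H19 (−0.40), Igf2 (−0.32), Nppa (−0.35), Igf2r (−0.26) and Cdkn1c. The fetal count was 6 with libraries scaled by their size alone, where 1164 of all 13545 genes were lower. It was smaller without WT-453-3. In the neddylation list 2 of 24 genes were higher and 1 was lower, near the 5.94% and 5.53% of all genes.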

How the data were processed

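Ventricular polyadenylated RNA of neonatal mice was sequenced, and the authors deposited a table of raw read counts per gene, with bcl2fastq, STAR 2.0.4b, Subread and featureCounts 1.4.5 named in the submitters' processing notes. The sources used here do not state the build, annotation or strand of the counting. In the table there are 41264 lines for 40690 Ensembl genes, and each gene was used once (574 repeated lines were dropped). Names, positions, joined exon lengths and overlaps came from GENCODE M21, which holds 40254 of the genes. CTL animals are biological replicates according to the study, and each library was kept as 1 sample, since every pair differed by more than counting noise (chi-square per gene 4.02 to 67.2). Total counts ranged from 13932821 to 18056322 per library, and counting error limits genes of few counts.

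Counts were scaled by TMM in edgeR 4.0.16 (R 4.3.3, limma 3.58.1, Python 3.11.15). The title numbers were compared by the quasi-likelihood test of edgeR (robust, filterByExpr, Benjamini-Hochberg adjusted p under 0.05), after the test had been checked on simulated data. Alternatives were RLE size factors, library size alone, DESeq2 1.42.0, limma-voom, other count filters, fits without Gm42418, mitochondrially encoded and hemoglobin genes, other lengths and leaving out each library. Genes were named by rule, as the 20 highest by share and the 20 highest per kilobase, both genes of 72 pairs, up to 5 leading members and the members at 0 of 44 lists (635 genes), the 12 genes with the most and the 8 with the least spread, the 10 genes of smallest adjusted p higher and lower past 1.5-fold, Nae1, and the sex-linked and ribosomal RNA lists. Other list members with values were picked after their values were seen. Members, lists and pairs were chosen with earlier results of these data known. The check of shared 50-base stretches and the promoter search were added after seeing the data, with promoters from RefSeq (GRCm38.p6). The knockout libraries were not used here. Some genes, and the gene pairs that hold them, are not reported here.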

Additional observations from a re-analysis of the deposited data

Results flagged for a closer look

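In 19 of 254 measures, 1 library stood far from the other 3 by Dixon's ratio. The far library was WT-453-5 in 11, WT-453-3 in 4, WT-443-8 in 3 and WT-443-7 in 1. The measures share libraries and genes and are not independent, and they include genes named for their large spread. How many would pass by random spread alone was not tested.

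In WT-453-5 the ribosomal RNA overlap list took 13.2% of the counts (4.20% to 4.81% in the others), and the 10 most abundant genes took 26.8% (19.2% to 19.8%). Gm42418 stood at 138827 CPM, Mir6236 at 3243, Gm15564 at 2655, Gm23935 at 699.9 and Lars2, the tRNA synthetase gene, at 4399.8 CPM. The share of the neddylation list was the lowest there, at 0.151% against 0.170% to 0.173%, while its summed level after TMM scaling was 1638 CPM against 1645 to 1686 CPM. Of the sex-linked genes, Eif2s3y had 55.0 CPM, Ddx3y 36.8 CPM and Kdm6a 28.1 CPM, the last against 52.3 to 56.2 CPM in the other libraries.

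In WT-453-3 the raw shares of several cardiomyocyte lists were highest. Its cardiomyocyte markers took 9.60% of the counts (8.30% to 8.35% in the others), its thick filament genes 6.30% (5.43% to 5.52%) and its calcium handling genes 2.22% (1.95% to 1.97%). These are shares of all counts, Gm42418 included, and after TMM scaling WT-453-5 lay close to WT-453-3, with cardiomyocyte markers at 90204 and 95193 CPM, thick filament genes at 59701 and 62511 CPM and calcium handling genes at 21229 and 22007 CPM. The log2 ratio of Slc2a4 to Slc2a1, the adult to the fetal glucose transporter, was also highest there, at 1.97 against 1.73 to 1.76. In WT-443-8 the stretch-responsive Ankrd1 had 514 CPM against 206 to 252, the kinase gene Mylk4 had 23.8 CPM against 8.35 to 10.4, and the log2 ratio of Myom1 to Myom3 was 7.5 against 8.51 to 8.65. In WT-443-7 the log2 ratio of the ventricular connexin gene Gja1 to Gja5 was 2.17 against 2.84 to 2.91.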

How the results depend on the processing

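No paired analysis was possible because the libraries of the title numbers share no replicate number. The 1553 genes called between title numbers dropped to 554 with DESeq2 (299 higher and 255 lower in WT-453) and to between 511 and 835 when a library was left out, with 835 without WT-443-7, 511 without WT-443-8, 525 without WT-453-3 and 736 without WT-453-5. In those fits 1 title number has a lone library, which is assumed to vary like the others, and fewer samples enter. The other settings gave 1266 to 1778 calls. Of the 39 single genes compared, none turned direction in any setting, Myh6, Pcna and Clock lost their call with libraries scaled by their size alone, Cry2 and Pcna with DESeq2, and Cdk6, Cry2, Igf2, Igf2r, Myh6, Pcna and Per2 in at least 1 fit without a library, while Nppb gained one in 5 settings. The share of the 10 most abundant genes was 21.3% over the libraries, 11.5% without Gm42418, mitochondrially encoded and hemoglobin genes and 17.0% among protein-coding genes. The sarcomere share of 11.0% became 11.8% without Gm42418. The median biological CV of 5.57% became 7.76% with library size alone, 6.06% and 5.33% with minima of 1 and 100 CPM, and 4.96% to 5.31% when a library was left out. Without length correction the log2 ratio turned for Tnni3 to Tnni1 (−0.51), Kcnj2 to Kcnj12 (0.48) and Col1a1 to Col3a1 (−0.49, and −0.58 with the length of the longest transcript). Genes of few counts are limited by depth.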
